A study of Mus musculus with 10 samples.

Results

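The secreted Wnt antagonists examined here are 10 genes, Dkk1, Dkk2, Dkk3, Dkk4, Sfrp1, Sfrp2, Sfrp4, Sfrp5, Frzb and Wif1, taken by gene symbol from a deposited expression table of 56748 genes, in which each had 1 row. Bulk RNA was sequenced from 10 mouse gastric tumours, 5 labelled inflamed and 5 labelled desert, and each tumour gave 1 library. According to the labels, inflamed tumours (library names with APTc) arose in mice carrying Tff1-CreERT2, Apcfl/fl and Trp53fl/fl, that is, an inducible Cre recombinase under the promoter of the gastric epithelial gene Tff1 together with floxed alleles of the Wnt pathway suppressor Apc and of the p53 gene. The desert tumours (library names with MDA) were allografts placed in the stomach, with a wild-type genotype; whether this genotype is that of the host or of the grafted cells, and which mutations the graft has, is not stated. Age is not stated either. Because every inflamed tumour came from mice with engineered alleles and every desert tumour was grafted, tumour type, genotype and model cannot be told apart. Nothing in the labels says whether the desert tumours came from 1 cell line, so p-values measure the spread between these tumours.

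Wnt proteins signal through Frizzled receptors and the co-receptors Lrp5 and Lrp6, which stabilises beta-catenin; loss of Apc stabilises it without a ligand. Secreted antagonists act outside the cell in different ways: Wif1 and the secreted Frizzled-related proteins (Sfrp1, Sfrp2, Sfrp4, Sfrp5 and Frzb, also called Sfrp3) bind Wnt ligands, whereas Dkk1, Dkk2 and Dkk4 bind Lrp5 and Lrp6. Dkk3 is the divergent member of the DKK family and does not act on these co-receptors in the same way. In the intestine, cells that have lost Apc are known to secrete several of these proteins, and Dkk1, Dkk4 and Wif1 are described as targets of beta-catenin.

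Values are FPKM (fragments per kilobase of transcript, scaled by a total per library), so levels can be compared between genes. Between 15474313 and 15975770 reads fell in genes in the inflamed libraries, and between 14148147 and 16951640 in the desert libraries. The totals behind the FPKM did not follow these reads alone. In inflamed tumour 4 the total was 15220268, below its 15535722 reads in genes. In desert tumour 2 it was 16990692, above its 14827329 reads in genes. Summed over all genes, FPKM reached 280795 to 356133 in the inflamed group and 236901 to 269525 in the desert group, so the groups did not overlap in this sum. The defining markers of gastric epithelium were checked in both groups: the 10 genes together (among them Tff2, Gkn1, Pgc, Muc6 and Atp4a) summed to 8112 to 42212 FPKM in inflamed tumours. Desert tumours reached 25.3 to 56.2 FPKM, of which Muc6 and Atp4a, at 21.3 ± 12.4 and 10.7 ± 5.55 FPKM (SD, n = 5), made up most; Tff2 was at 0.202 ± 0.247 FPKM there. The tissue label of the desert tumours, stomach, is therefore met by few of its markers. Each tumour is a mixture of cells, and fewer cells of a type and less RNA per cell cannot be told apart.

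The comparison asked how the secreted antagonists differ between the 2 tumour types. Of the 10 genes, 7 had a mean of at least 0.5 FPKM over the 10 tumours and were tested with all other genes of that level. By limma, Sfrp1 and Dkk2 were higher in inflamed tumours and Wif1, Sfrp5, Sfrp2, Dkk3 and Dkk4 were lower. All 7 therefore passed the threshold (Benjamini-Hochberg adjusted p under 0.05 over 16750 genes), against 62.2% of all tested genes, of which 31.0% were higher and 31.2% lower. Rescaling each library to the same sum (TPM) moved the median difference of all genes to -0.28, and 35.0% rather than 49.9% of called genes were then higher; all 7 antagonists kept their direction and call. The groups did not overlap in 6 of the 7, against 48.9% of all tested genes (24.4% higher and 24.4% lower in inflamed tumours); the exception was Dkk3. A gene high in 1 group passes the level filter more easily, so these counts do not stand for the whole family. Dkk1, Sfrp4 and Frzb lay below the filter. The median difference of the 7 genes was -1.47 on the log2(FPKM + 1) scale, inflamed minus desert, beside -0.01 over all tested genes. The level filter bears on this median too. Dkk1, Sfrp4 and Frzb, which it left out, had differences of 0.02, 0.02 and 0.28. Sfrp5 ranked 95 and Wif1 360 among the 16750 genes by the size of the log2 difference.

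**Figure D1:**
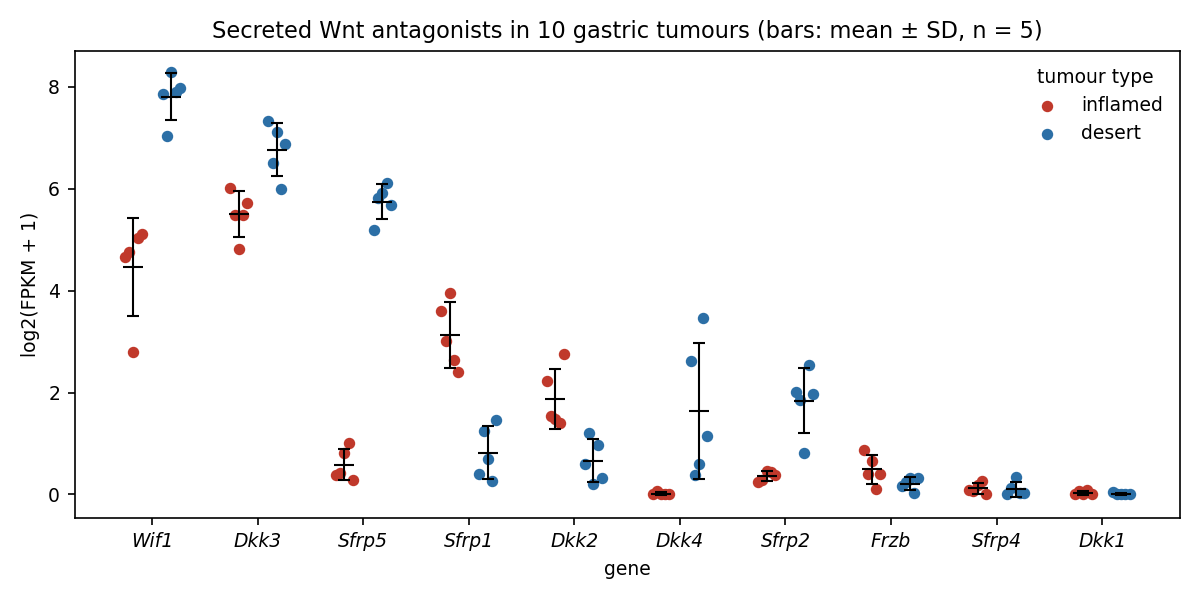
Expression of the 10 secreted Wnt antagonists as log2(FPKM + 1) on the vertical axis, with 1 point per tumour (red inflamed, blue desert), genes ordered by mean FPKM, and bars at the mean ± SD of 5 tumours. Wif1, Sfrp5, Sfrp2 and Dkk4 were higher in every desert tumour, Sfrp1 and Dkk2 in every inflamed tumour, and Dkk1, Sfrp4 and Frzb were near 0 or overlapped.

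Wif1, which binds Wnt ligands through its WIF domain, was the most abundant of the 10 genes in desert tumours. The 250 bases before its transcription start are shown because it had the highest level of the 10 genes; they come from RefSeq (build GRCm38.p6), and capitals mark the letters TATAAA on either strand:

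Wif1, chr10:121033754-121034003, plus strand: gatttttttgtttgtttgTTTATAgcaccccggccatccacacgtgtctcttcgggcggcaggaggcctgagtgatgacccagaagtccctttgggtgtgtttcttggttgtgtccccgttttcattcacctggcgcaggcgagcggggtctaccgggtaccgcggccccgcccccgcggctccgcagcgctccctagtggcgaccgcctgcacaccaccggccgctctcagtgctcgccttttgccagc

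Wif1 (ENSMUSG00000020218, chromosome 10, 120869865 to 120936555 in the deposited table) measured 24.1, 25.9, 5.94, 31.8 and 33.5 FPKM in inflamed tumours 1 to 5. The desert tumours had 230, 129, 312, 235 and 250 FPKM. Every desert tumour was above every inflamed tumour, and inflamed tumour 3 stood below the other inflamed tumours. The ratio of the group means was 9.53, desert over inflamed. The log2 difference was -3.34 (SE 0.41, 95% interval -4.25 to -2.42, limma adjusted p = 4.25e-05). Without inflamed tumour 3 it was -2.92. The coefficient of variation was 45.2% among inflamed and 28.4% among desert tumours.

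Sfrp5, a secreted Frizzled-related protein, showed the largest difference of the 7 tested genes on the log2(FPKM + 1) scale. The same stretch before its start is shown because of that difference; no searched motif was found in it, so it has no capitals:

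Sfrp5, chr19:42202253-42202502, minus strand: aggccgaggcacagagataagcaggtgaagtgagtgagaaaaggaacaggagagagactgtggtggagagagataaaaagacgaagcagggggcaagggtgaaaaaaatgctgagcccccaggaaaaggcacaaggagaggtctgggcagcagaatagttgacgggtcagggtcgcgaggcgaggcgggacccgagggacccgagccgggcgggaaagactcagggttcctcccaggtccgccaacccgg

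Sfrp5 (ENSMUSG00000018822, chromosome 19, 42186410 to 42190691) measured 0.299, 0.344, 0.753, 1.0 and 0.225 FPKM in inflamed tumours 1 to 5, from 7 to 29 reads per library. Desert values, in the same order, were 35.5, 55.4, 59.5, 68.4 and 50.4 FPKM, from 1035 to 2472 reads. The groups were far apart, and desert tumour 1 was the lowest of its group. The ratio of the group means was 103, desert over inflamed, and the log2 difference was -5.16 (SE 0.19, 95% interval -5.58 to -4.75, limma adjusted p = 5.71e-09).

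Sfrp1, a close relative of Sfrp5, went the other way. Sfrp1 (ENSMUSG00000031548, chromosome 8, 23901518 to 23939648) measured 11.1, 7.11, 14.5, 5.17 and 4.30 FPKM in inflamed tumours 1 to 5. In the desert group the values were 0.328, 1.37, 0.625, 0.204 and 1.76 FPKM. Every inflamed tumour was above every desert tumour; inflamed tumour 3, lowest for Wif1, was highest for Sfrp1. The ratio of the group means was 9.83, inflamed over desert, and the log2 difference was 2.30 (SE 0.33, 95% interval 1.58 to 3.03, limma adjusted p = 0.000116). With a pseudocount of 0.01 it was 3.56. The ratio of Sfrp1 to Sfrp5 within a tumour ran from 5.16 to 37.2 in inflamed tumours and from 0.00299 to 0.0349 in desert tumours. Sfrp1 exceeded Sfrp5 in 5 of 5 inflamed tumours and lay below it in 5 of 5 desert tumours.

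Sfrp2, another member that binds Wnt ligands and is usually expressed by stromal cells, was higher in desert tumours at a low level. Its upstream stretch is shown beside that of Sfrp5, since both were higher in desert tumours; it also held no searched motif:

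Sfrp2, chr3:83766071-83766320, plus strand: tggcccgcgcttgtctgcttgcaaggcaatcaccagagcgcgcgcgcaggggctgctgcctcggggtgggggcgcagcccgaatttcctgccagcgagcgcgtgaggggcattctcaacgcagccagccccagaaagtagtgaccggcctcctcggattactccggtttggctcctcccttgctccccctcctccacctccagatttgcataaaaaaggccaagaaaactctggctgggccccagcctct

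Sfrp2 (ENSMUSG00000027996, chromosome 3, 83673628 to 83681623) measured 0.185, 0.221, 0.372, 0.366 and 0.312 FPKM in inflamed tumours 1 to 5, from 7 to 14 reads. Across desert tumours 1 to 5 the values were 3.06, 2.60, 0.750, 4.81 and 2.94 FPKM. Desert tumour 3 was the lowest of its group, and the groups still did not overlap. The log2 difference was -1.47 (SE 0.26, 95% interval -2.04 to -0.90, limma adjusted p = 0.000519), and -3.07 with a pseudocount of 0.01. The non-coding gene Gm26771 overlaps Sfrp2 on the other strand and reached 0.505 FPKM in desert tumours; strandedness is not stated, so reads of the pair cannot be told apart.

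The remaining members that bind Wnt ligands, Sfrp4 and Frzb, were low in all tumours and were not called different. Sfrp4 (ENSMUSG00000021319, chromosome 13, 19807274 to 19817164) had 30 reads over the 5 inflamed and 26 over the 5 desert tumours, and its highest values were 0.204 FPKM in inflamed tumour 4 and 0.268 FPKM in desert tumour 3. Its log2 difference was 0.02 (exact two-sided permutation test over the 252 splits of the tumours, p = 0.825, smallest possible p 0.00794). Frzb (ENSMUSG00000027004, chromosome 2, 80242314 to 80277969), which is also known from cartilage, measured 0.824, 0.330, 0.583, 0.0812 and 0.321 FPKM in inflamed tumours 1 to 5. The 5 desert tumours were at 0.121, 0.182, 0.249, 0.0162 and 0.244 FPKM. The groups overlapped through inflamed tumour 4, and the log2 difference of 0.28 did not pass (exact two-sided permutation test, p = 0.0873; limma without the level filter, adjusted p = 0.143; limma voom on reads, adjusted p = 0.149).

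Dkk3, the divergent DKK, was the most abundant antagonist in inflamed tumours. Dkk3 (ENSMUSG00000030772, chromosome 7, 111715224 to 111758264) measured 63.5, 43.8, 27.0, 43.9 and 51.6 FPKM in inflamed tumours 1 to 5. Values in desert tumours 1 to 5 were 159, 89.9, 138, 63.0 and 116 FPKM. Inflamed tumour 1 and desert tumour 4 met at nearly the same value, so the groups overlapped. The log2 difference was -1.26 (SE 0.27, 95% interval -1.86 to -0.66, limma adjusted p = 0.00195), the smallest shift in ratio of means among the 7 tested genes (2.46, desert over inflamed).

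Dkk2, which binds Lrp6, was higher in inflamed tumours. Its upstream stretch is shown as that of a member with the opposite direction to Wif1, Sfrp5 and Sfrp2; the capitals mark TATAAA, 32 bases before the start:

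Dkk2, chr3:132085042-132085291, plus strand: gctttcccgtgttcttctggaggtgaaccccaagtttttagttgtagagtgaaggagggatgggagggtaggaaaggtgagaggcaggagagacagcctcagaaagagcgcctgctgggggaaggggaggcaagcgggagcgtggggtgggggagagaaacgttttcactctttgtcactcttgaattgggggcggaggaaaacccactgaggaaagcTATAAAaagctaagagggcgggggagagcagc

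Dkk2 (ENSMUSG00000028031, chromosome 3, 131791053 to 131886065) measured 3.66, 1.91, 1.79, 1.63 and 5.79 FPKM in inflamed tumours 1 to 5. In the grafted desert tumours the values were 0.510, 1.30, 0.151, 0.965 and 0.256 FPKM. Inflamed tumours 1 and 5 stood above the other inflamed tumours, and the lowest inflamed tumour was close to the highest desert tumour. The log2 difference was 1.22 (SE 0.29, 95% interval 0.58 to 1.86, limma adjusted p = 0.00374), and 2.41 with a pseudocount of 0.01.

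Dkk4 was close to absent from inflamed tumours and varied more among desert tumours than the other tested antagonists. Dkk4 (ENSMUSG00000031535, chromosome 8, 23114059 to 23117563) had 1 read over all 5 inflamed libraries, in tumour 2 (0.0451 FPKM); 0 reads in the other inflamed libraries allow up to 0.130 to 0.150 FPKM, the value of 3 reads. Desert tumours 1 to 5 had 5.10, 0.313, 0.520, 10 and 1.2 FPKM, from 103, 7, 11, 251 and 30 reads. Desert tumours 1 and 4 were high, and the highest was 32.0 times the lowest. The coefficient of variation among desert tumours was 121%. The log2 difference was -1.63 (SE 0.52, 95% interval -2.78 to -0.48, limma adjusted p = 0.0183), and the adjusted p was 0.0455 without desert tumour 1, the highest over the alternatives. Reads were also set against the library totals behind the FPKM. On that measure desert tumours had 389 times the Dkk4 reads of inflamed tumours (exact 95% interval 69.3 to 15386, counting error only). Desert tumour 4 held 251 of the 402 desert reads, and without it the ratio was 187. Without inflamed tumour 2, which held the only inflamed read, desert tumours had at least 103 times the reads, set against 3 reads over the inflamed group. The size on the log2 scale depends on the pseudocount, with -4.04 at 0.1 and -6.83 at 0.01.

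Dkk1, the best known inhibitor of Lrp5 and Lrp6, was not detectable above a few reads. Dkk1 (ENSMUSG00000024868, chromosome 19, 30523263 to 30527065) had 2 reads each in inflamed tumours 2 and 4, 1 read in desert tumour 1 and none in the other 7 libraries, where 0 reads allow up to 0.0702 to 0.0755 FPKM (inflamed) and 0.0650 to 0.0768 FPKM (desert). No difference was detectable at this depth (log2 difference 0.02, exact two-sided permutation test, p = 0.444). Within the DKK family Dkk3 was at 27.0 FPKM or more in every tumour, while Dkk2 and Dkk4 reached no more than 5.79 and 10 FPKM and Dkk1 stayed at the limit of detection in both tumour types.

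**Figure D2:**
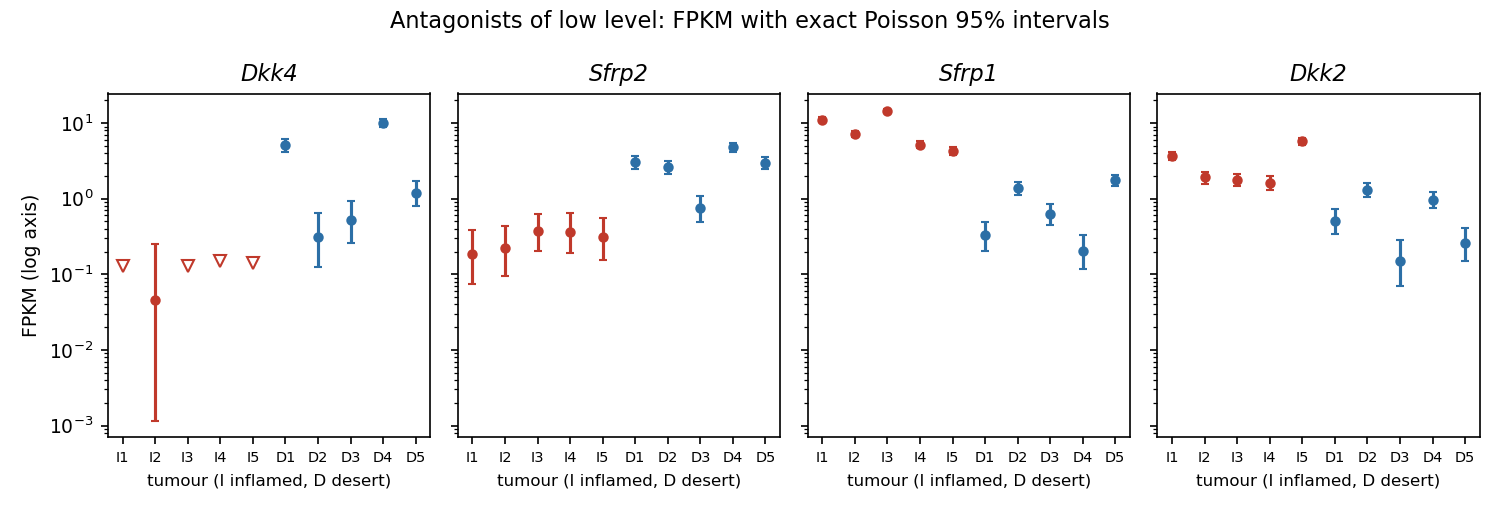
FPKM of Dkk4, Sfrp2, Sfrp1 and Dkk2 in each tumour on a log axis (I inflamed, D desert), with exact Poisson 95% intervals of the reads, which cover counting error only; open triangles stand at the value of 3 reads in libraries with 0 reads. Dkk4 runs from 0.313 to 10 FPKM among desert tumours.

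**Figure D3:**
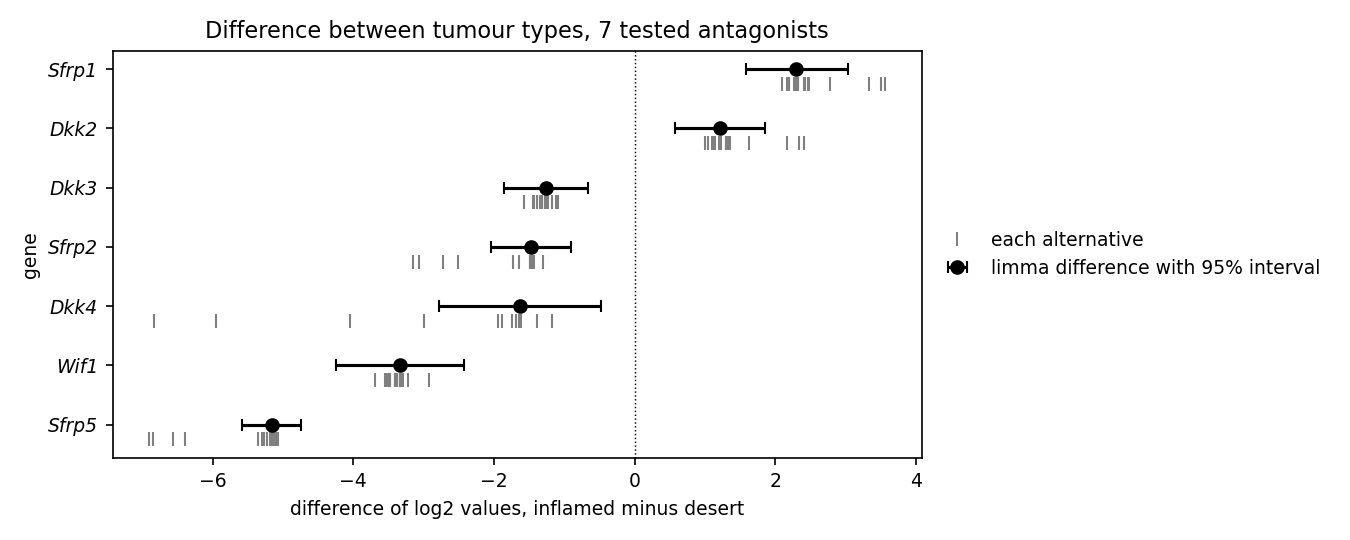
Difference between tumour types for the 7 tested antagonists on the log2 scale, inflamed minus desert, with the limma estimate and its 95% interval (black) and the estimate under each alternative (grey ticks). Sfrp1 and Dkk2 lie above 0 and Dkk3, Sfrp2, Dkk4, Wif1 and Sfrp5 below 0 under every alternative in which they were tested. Dkk4 ranges from -6.83 at a pseudocount of 0.01 to -1.17 without desert tumour 4.

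The make-up of the antagonist transcripts differed as well as their sum. The 10 genes together reached 104, 79.8, 51.1, 84.2 and 96.0 FPKM in inflamed tumours 1 to 5. The desert tumours had 433, 281, 511, 383 and 423 FPKM. The ratio of the means was 4.89, desert over inflamed, although the sum over all genes was lower in desert tumours. Wif1 and Dkk3 made up 64.6% to 89.9% of the sum in inflamed and 77.9% to 89.7% in desert tumours. Within that pair the order turned: Wif1 was at 0.220 to 0.724 times Dkk3 in inflamed tumours and at 1.44 to 3.74 times Dkk3 in desert tumours. Wif1 alone was 28.0% ± 10.6 of the sum in inflamed and 56.1% ± 6.53 in desert tumours (SD, n = 5 each), while the share of Sfrp5 was 0.723% ± 0.569 and 13.9% ± 4.78. Sfrp1 made up 28.3% of the sum in inflamed tumour 3 and 4.48% to 10.7% in the other inflamed tumours, and no more than 0.490% in any desert tumour. The DKK genes made up 54.1% to 64.7% of the sum in inflamed and 19.3% to 37.9% in desert tumours. Without Wif1 the other 9 genes summed to 45.1 to 79.6 FPKM (inflamed) and 147 to 203 FPKM (desert).

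By mean FPKM the order in inflamed tumours was Dkk3, Wif1, Sfrp1, Dkk2, Sfrp5, Frzb, Sfrp2, Sfrp4, Dkk1 and Dkk4. Only Dkk2 and Sfrp5 were neighbours whose ranges lay apart; all other neighbours overlapped, although Dkk3 was above Wif1 in 5 of 5 inflamed tumours. In desert tumours the order was Wif1, Dkk3, Sfrp5, Dkk4, Sfrp2, Sfrp1, Dkk2, Frzb, Sfrp4 and Dkk1. There only Sfrp5 and Dkk4 lay apart, with Wif1 above Dkk3 in 5 of 5 tumours and Dkk4 above Sfrp2 in 2 of 5.

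**Figure D4:**
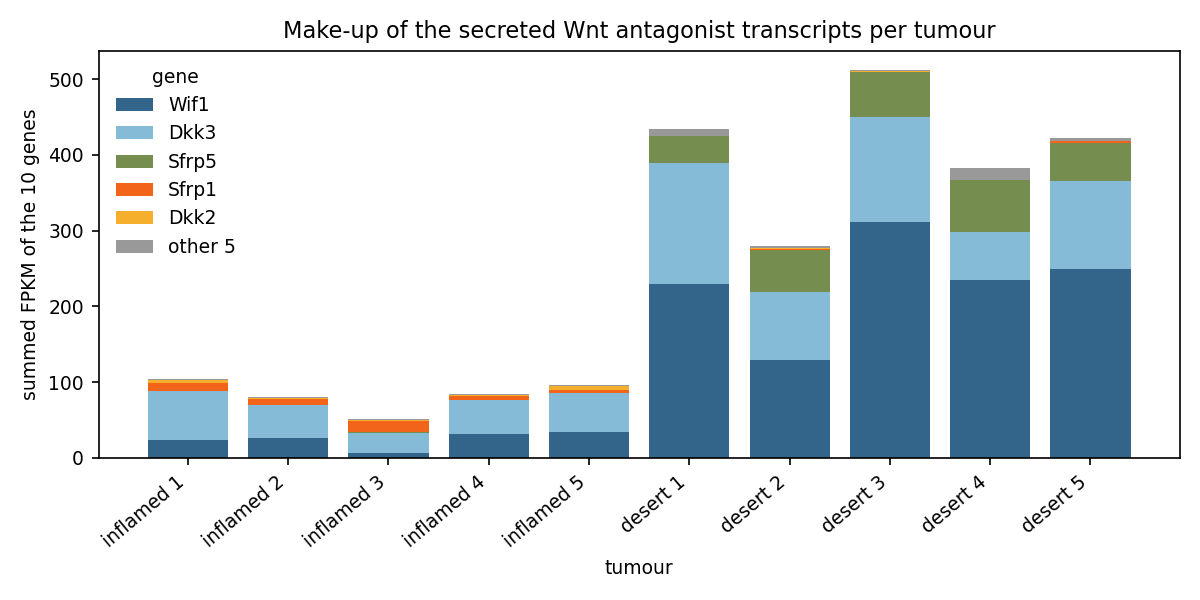
Summed FPKM of the 10 antagonists in each tumour, stacked by gene, with Dkk1, Dkk4, Sfrp2, Sfrp4 and Frzb pooled as other 5. Inflamed tumours reach 51.1 to 104 FPKM and desert tumours 281 to 511 FPKM; Sfrp1 is visible in the inflamed bars and Sfrp5 in the desert bars.

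Other genes of the Wnt pathway also differed between the tumour types. Over 6 lists of Wnt pathway genes other than the 10 antagonists (69 genes), 52 were tested, of which 16 were higher and 30 lower in inflamed tumours and 6 did not pass, beside 31.0% higher and 31.2% lower over all tested genes. In the co-receptor, Frizzled and Wnt ligand lists 2, 5 and 5 genes were higher and 4, 5 and 6 lower. In the lists of the R-spondin module, other extracellular inhibitors and target genes 1, 0 and 3 were higher and 3, 4 and 8 lower. Pairs of values below give inflamed tumours first. Of 7 co-receptor genes, Lrp5, Lrp6, Kremen1 and Ror2 were lower, Kremen2 and Ryk higher, and Ror1 did not pass (median log2 difference -0.52). The small difference of Ryk (0.27) was not called after rescaling to TPM or with voom, and its sign turned in 1 alternative. Lrp6, the main DKK target, was at 8.79 ± 0.668 against 16.1 ± 2.14 FPKM in inflamed and desert tumours (SD, n = 5 each; limma adjusted p = 5.06e-05). Lrp5 was at 37.9 ± 2.80 and 56.6 ± 19.1 FPKM (adjusted p = 0.0270), and not called without inflamed tumour 3 (adjusted p = 0.0612). The transmembrane proteins Kremen1 and Kremen2 bind DKK proteins together with Lrp6. Kremen1 was at 5.71 ± 0.929 and 19.1 ± 2.66 FPKM (log2 difference -1.58), and Kremen2 at 2.58 ± 1.28 and 0.141 ± 0.0786 FPKM (log2 difference 1.59). The 2 Kremen genes had opposite directions. Ror2, a receptor for Wnt5a, was at 7.87 ± 1.18 and 19.5 ± 11.9 FPKM (adjusted p = 0.0102).

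All 10 Frizzled receptor genes passed, 5 in each direction, and their groups did not overlap (median log2 difference -0.09); over all tested genes 62.2% passed and 48.9% did not overlap. Fzd5, a receptor of gastric and intestinal epithelium, was at 12.1 ± 7.69 FPKM (inflamed) and 1.15 ± 0.193 FPKM (desert), and Fzd1 at 7.70 ± 2.03 and 1.28 ± 0.549 FPKM. Fzd10 was at 2.58 ± 0.935 and 17.9 ± 6.53 FPKM, Fzd7 at 3.90 ± 0.198 and 19.5 ± 8.08 FPKM, and Fzd6 at 9.98 ± 0.899 and 24.6 ± 3.03 FPKM (SD, n = 5 each). Among 19 Wnt ligand genes 11 were tested, with 5 higher and 6 lower (median -0.87). Of the 5, Wnt2b and Wnt10a were close to the threshold and kept their call in 11 and 6 of 19 alternatives. The other 8 ligands were below the filter. Among these Wnt1 was at 0.00995 ± 0.0136 FPKM (inflamed) and 0.331 ± 0.192 FPKM (desert), with groups that did not overlap. Wnt5a, a ligand of signalling that does not use beta-catenin, was at 6.56 ± 1.86 FPKM in the inflamed group against 0.152 ± 0.0981 in the desert group, and Wnt4 at 3.30 ± 2.27 and 0.00296 ± 0.00662 FPKM. Wnt7b was at 0.219 ± 0.107 and 16.1 ± 2.03 FPKM, Wnt7a at 0.314 ± 0.158 and 14.8 ± 4.56 FPKM, and Wnt6 at 5.85 ± 2.46 and 15.4 ± 5.45 FPKM.

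Of 9 other extracellular inhibitors of the pathway 5 were tested; Notum, Apcdd1, Igfbp4 and Trabd2b were lower in inflamed tumours and Dkkl1 did not pass (median log2 difference -2.58 over the 5). The other 4 were below the filter, among them Draxin at 0.313 ± 0.302 and 0.0108 ± 0.0156 FPKM, with groups that did not overlap, and Sostdc1 at 0.181 ± 0.192 and 0.0177 ± 0.0264 FPKM, with groups that did. Notum, the enzyme that removes the lipid of Wnt proteins, was at 82.4 ± 29.7 against 580 ± 294 FPKM in inflamed and desert tumours (SD, n = 5 each; log2 difference -2.71, limma adjusted p = 0.000208). Apcdd1, a membrane inhibitor of Wnt signalling, was at 1.87 ± 0.262 and 47.0 ± 21.8 FPKM (log2 difference -3.95). Igfbp4, which binds insulin-like growth factors and Lrp6, was at 62.9 ± 21.7 and 365 ± 60.6 FPKM, and Trabd2b, a Wnt-cleaving protease, at 0.321 ± 0.0697 and 3.75 ± 0.538 FPKM. Sclerostin (Sost) had no reads in any tumour.

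Of 9 genes of the R-spondin module, whose ligands raise the amount of Frizzled at the membrane, 4 were tested: Lgr4 was higher in inflamed tumours and Lgr5, Znrf3 and Rnf43 were lower. The other 5, the R-spondin ligands and Lgr6, were below the filter. Rspo3 was at 0.684 ± 0.405 FPKM (inflamed) and 0.00340 ± 0.00761 FPKM (desert), with groups that did not overlap. The groups of the other ligands and of Lgr6 overlapped. Lgr5, a stem cell marker and beta-catenin target, was at 8.03 ± 2.89 FPKM (inflamed) and 85.6 ± 18.3 FPKM (desert), whereas Lgr4 was at 68.2 ± 13.5 and 19.6 ± 0.668 FPKM. The ligases Znrf3 and Rnf43, which remove Frizzled, were at 10.4 ± 2.52 and 28.5 ± 1.94 FPKM and at 32.3 ± 7.16 and 83.6 ± 5.22 FPKM (SD, n = 5 each). Of 15 Wnt target genes 8 were lower, 3 higher and 4 did not pass (median -0.79), which is near the 62.2% of all tested genes that passed. Axin2, the feedback inhibitor used as a readout of beta-catenin, was at 31.1 ± 9.81 and 97.2 ± 17.0 FPKM. Nkd1 was at 78.6 ± 30.4 and 271 ± 50.7 FPKM, Prox1 at 31.2 ± 12.7 and 134 ± 41.3 FPKM, and Tcf7 at 15.4 ± 3.31 and 48.4 ± 14.3 FPKM (SD, n = 5 each). The target genes that were higher in inflamed tumours were Myc, Cd44 and Tnfrsf19. Those that did not pass were Sp5, Ephb2, Ephb3 and Nkd2. Sp5 was at 28.7 ± 11.6 and 32.1 ± 18.2 FPKM and Ephb2 at 9.51 ± 0.787 and 9.45 ± 0.724 FPKM. Ephb3, with the lower mean in inflamed tumours, was called in 5 of 20 alternatives.

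**Figure D5:**
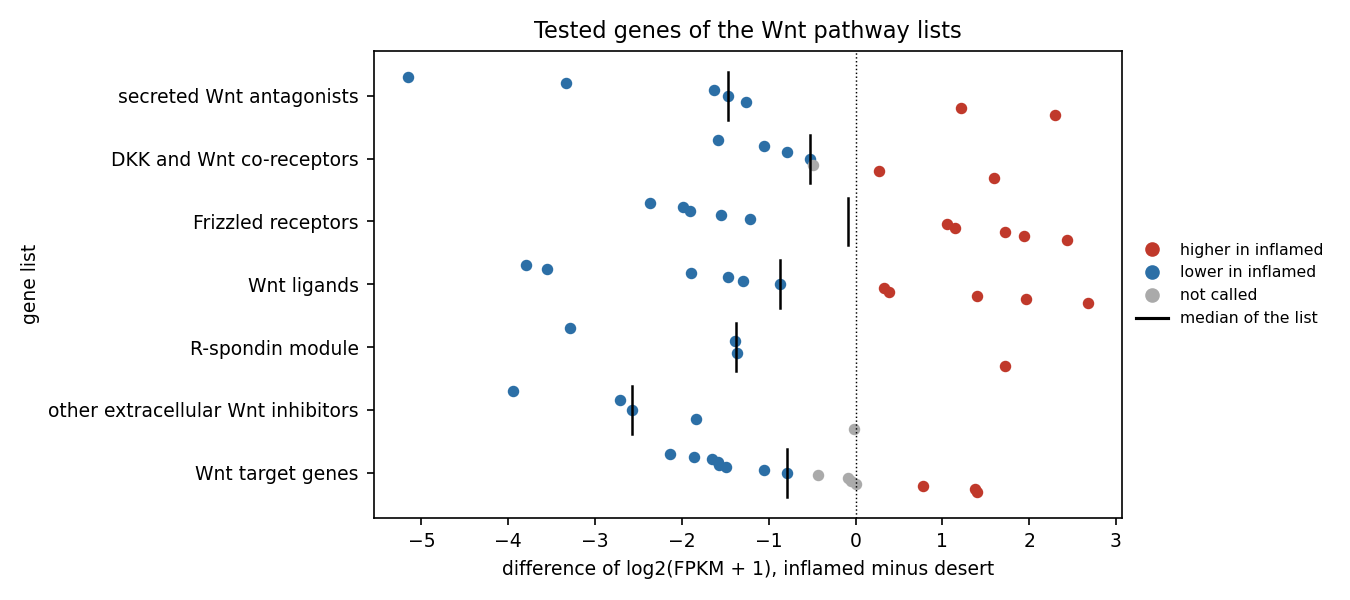
Log2(FPKM + 1) difference, inflamed minus desert, of each tested gene in the antagonist list and 6 further Wnt pathway lists (red higher, blue lower, grey not called by limma), with the median of each list as a black line. The medians run from -2.58 for the other extracellular inhibitors to -0.09 for the Frizzled receptors.

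Sfrp5 and Wif1 were the 2 antagonists with the largest differences at a pseudocount of 1. By size, Dkk4 exceeded Wif1 at 0.1, 0.01 and with voom, and Sfrp1 exceeded Wif1 at 0.01 and with voom. Likeness of profile was measured as the root mean square difference of mean-centred log2(FPKM + 1) over the 10 tumours. The profiles most like those of Sfrp5 and Wif1 were sought among 13610 genes. For Sfrp5 these were Chrnd (0.29), an acetylcholine receptor subunit, the homeobox gene Evx1 (0.30) and the proteoglycan gene Chadl (0.35), beside a standard deviation of 2.60 for Sfrp5 itself. For Wif1 they were Gulo (0.44), an enzyme of vitamin C synthesis, the proteoglycan gene Spock2 (0.45) and the lipid transporter Atp10a (0.46), beside 1.80 for Wif1. Spock2, for example, was at 36.3 ± 19.5 FPKM in the inflamed group against 587 ± 179 in the desert group (SD, n = 5 each).

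The tested antagonists that share a chromosome, Dkk4 with Sfrp1 and Dkk2 with Sfrp2, had opposite directions. Dkk4 and Sfrp1 lie 784 kb apart on chromosome 8 in the deposited table. Of the 12 tested genes between them, 3 were higher and 3 lower in inflamed tumours. Within 500 kb of Wif1, 10 of 14 other tested genes were lower and 1 higher, and within 500 kb of Dkk4, 11 of 19 were lower and 0 higher, beside 31.2% and 31.0% of all tested genes. The neighbourhoods of Sfrp5, Dkk3 and Dkk2 did not follow their antagonist. Near Sfrp5, 3 of 17 were lower and 6 higher, near Dkk3, 0 of 4 lower and 3 higher, and near Dkk2, 2 of 2 lower. Near Sfrp2, 3 of 5 were lower and 0 higher, and near Sfrp1, 3 of 8 were higher and 2 lower. The medians of chromosomes 10 and 8 were -0.13 and -0.14, and the part of such regional shifts in the results was not tested.

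Promoter sequences from RefSeq matched 6 of the 10 members (Dkk1, Dkk2, Frzb, Sfrp2, Sfrp5 and Wif1). In the 250 bases before the start, the TCF/LEF letters CTTTGAT, searched on both strands, were found in none of the 6 and in 3.21% of 32851 promoters. CTTTGTT was found in Dkk1, 98 bases before the start, and in 5.03% of all promoters. The letters TATAAA stood 32 bases before the start of Dkk2, 54 before that of Dkk1 and, on the other strand, 232 before that of Wif1, and in 12.4% of all promoters. A match describes the letters only. The stretch of Wif1 held 21 CpG dinucleotides, those of Sfrp2 and Frzb 16 each, that of Sfrp5 13, that of Dkk2 7 and that of Dkk1 6. The median over all promoters was 6.

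Markers of some other cell types also differed between the tumour types. The counts of called genes below stand beside 31.0% higher and 31.2% lower over all tested genes. The sums of endothelial, immune and glial genes overlapped between the groups, as did that of fibroblast genes. Most of the immune sum was Lyz2, at 111 ± 55.9 FPKM (inflamed) and 94.6 ± 52.8 FPKM (desert), which was not called. Ptprc, Cd3e and Cd79a were higher in inflamed tumours with groups that did not overlap, and Csf1r was higher with groups that did. Cartilage genes, with which Frzb and Wif1 are associated in the skeleton, summed over 9 genes to 91.7 to 121 FPKM (inflamed) and 589 to 896 FPKM (desert). Of these genes, 6 of the 7 tested were lower in inflamed tumours and Chad was higher. Acan, which encodes aggrecan, reached no more than 0.299 FPKM. Wif1 was lower in inflamed tumours too, whereas Frzb did not share this direction (mean 0.428 FPKM inflamed and 0.163 FPKM desert, not called). Smooth muscle genes, 7 in all, summed to 72.4 to 806 FPKM (inflamed) and 7.62 to 40.9 FPKM (desert), with 6 higher. Fibroblast and mesenchyme genes, 11 in all, overlapped in their sum (100 to 292 and 70.3 to 144 FPKM), with 3 of 9 tested higher, among them Dcn, and Twist1 lower. Of 6 pan-epithelial genes 4 were higher and none lower (3317 to 6318 and 1523 to 2227 FPKM). Of 5 endothelial genes 3 were higher (14.4 to 36.5 and 11.2 to 16.0 FPKM), of 5 immune genes 4 (51.4 to 213 and 39.6 to 169 FPKM), and both tested bone genes of 5 (3.99 to 8.51 and 0.924 to 1.60 FPKM). Of 4 glial genes 1 was tested, S100b, and it was higher (1.45 to 6.84 and 1.77 to 2.96 FPKM), with the call kept in 13 of 19 alternatives. Rescaling to TPM ended the calls of Col3a1, Kdr and S100b, quantile normalization that of Tagln and voom that of Atp4b. The part of these cell types in the antagonist levels was not tested.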

How the data were processed

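Bulk RNA-seq of 10 mouse gastric tumours was used. The authors deposited FPKM values in 1 table with 1 column per library. The aligner, counter, annotation and strand setting are not given in the sources used here. Per the submitters' processing notes the build was mm10. The table's starts matched GENCODE M21 (GRCm38) for 0 of the 10 members and their span lengths for 10, so gene positions are printed as deposited, with no build. FPKM times gene length gave whole reads in each library (100.0% within 0.01), hence the read numbers. One protocol text speaks of 6 tumours; all 10 were used.

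Genes with a mean of at least 0.5 FPKM were tested as log2(FPKM + 1) with limma 3.58.1 (R 4.3.3; intensity trend, robust moderation, two-sided, group only), with Benjamini-Hochberg adjustment over all of them; the added 1 shrinks differences of weakly expressed genes. The fit was checked on simulated data. Exact permutation tests (scipy 1.17.1) covered the 3 members below the filter and are unadjusted. The members and lists were chosen with earlier results of these data known. Named were all 10 members and 3 genes of like profile each for Sfrp5 and Wif1. From each pathway list, up to 4 called genes by absolute difference and the 2 tested genes highest by mean FPKM were named. Ryk, Ror1, Myc, Cd44, Tnfrsf19, Dkkl1, Sost, Draxin, Sostdc1, Wnt1, Wnt2b, Wnt10a and Gm26771 were named after their values were seen. The same holds for Rspo3, Lgr6, Sp5, Ephb2, Ephb3, Nkd2 and single marker genes. Alternatives were other pseudocounts, filters, scalings and moderation, voom, a block and each library left out. Tumour numbers did not pair the groups.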

Additional observations from a re-analysis of the deposited data

Results flagged for a closer look

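Among 20 sets of 5 tumours (10 genes, 2 tumour types), 3 held 1 tumour that stood apart from the other 4. The measure was its gap over the whole range of log2(FPKM + 1). For continuous values chance gives about 1 in 20. Wif1 in inflamed tumour 3 was at 5.94 FPKM, with the nearest at 24.1 FPKM (0.803 of the range). Dkk4 in inflamed tumour 2 (1 read) and Dkk1 in desert tumour 1 (1 read) had a gap equal to the whole range (1.0) because all other tumours of the set had 0 reads. The chance rate does not apply to the sets of Dkk4 and Dkk1, since 1 read among 0 reads always gives this gap.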

How the results depend on the processing

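The 7 tested antagonists kept their direction and their call in 136 of 136 alternative values. The 27 pathway genes chosen by the naming rule did so in 534 of 535, the exception being Lrp5 without inflamed tumour 3; Ryk, Wnt2b and Wnt10a, outside that rule, lost their call more often (called in 18 of 20, 11 of 19 and 6 of 19). The Dkk4 read ratio, left-out libraries added after seeing the data, ran from 103 (a lower bound) to 475. A mean of at least 5 FPKM left only Wif1, Dkk3 and Sfrp5 among the antagonists, so 0 were higher and 3 lower; it called 7 pathway genes higher (16 before), and 2784 genes higher and 3070 lower of all tested. Rescaling to TPM moved the median difference of all genes to -0.28 and quantile normalization to -0.11; the called genes were then 35.0% and 42.9% higher, against 49.9%. With the tumour number as a replicate block, 2 antagonists were higher and 5 lower, as without it, and 4958 genes were higher and 4967 lower; same-numbered tumours did not deviate together (r from -0.0737 to 0.0763 in 5 pairs), and 1 of 5 inflamed tumours correlated best with its own number. Depth limits Dkk1, Sfrp4, Frzb and Dkk4 in inflamed tumours.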
